A study of Carassius auratus with 9 samples.

Results

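Long non-coding RNA (lncRNA) genes were examined in the back skin of celestial goldfish (Carassius auratus, a domesticated cyprinid). The members are all gene rows with the biotype lncRNA and an annotated gene ID, 6931 of 74297 rows (9.33%). The rule that picks them uses annotation alone and no measured value, although it was set with earlier results of these data known. The fish were 4 months old and had brown, yellow or white back skin, with 3 libraries of each color labelled as biological replicates. The labels name no cross, treatment or tank, so p-values measure the spread between these libraries of a color. Reads counted on genes ranged from 13772601 to 17359648 per library. Values are FPKM, the fragments counted on a gene divided by its length in kilobases and by a total set for the library. That total was 0.675, 0.762 and 0.689 times the counted reads in brown 3, yellow 3 and white 3. In the other libraries it was 1.08 to 1.39 times the counted reads. FPKM in the libraries numbered 3 therefore stand high for a given share of reads. For a gene 1 kilobase long, a single read stands for 0.0448 to 0.0891 FPKM, depending on the library.

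Long non-coding RNAs are transcripts that are often spliced and polyadenylated like messenger RNAs but carry no long open reading frame. Some act on chromatin or on the transcription of a neighboring gene, some act in the cytoplasm on other RNAs, and for many no function is known. Fish pigment patterns are made by melanophores (black or brown), xanthophores (yellow or orange) and iridophores (reflective), which lie in skin beside keratinocytes, dermal fibroblasts, blood and, in a dissected piece, underlying muscle.

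All 6931 lncRNA genes matched an ID, a start position and an lncRNA biotype in NCBI's RefSeq gene table of assembly ASM336829v1, whose chromosome numbers are used here, and 0 had a product name other than uncharacterized. On the 50 numbered chromosomes lay 4161 of them, 110 were on named linkage groups and 2660 (38.4%) on unplaced sequence, against 24.0% of protein-coding genes. Chromosome 22 held the most, 248, followed by 143 on chromosome 9 and 135 on chromosome 1, while chromosome 33 held the fewest, 14. The strands were used almost equally, with 3453 genes on plus and 3478 on minus. The exonic length had a median of 731 bases and quartiles of 432.5 and 1255.5 bases, against a median of 2331 bases for protein-coding genes. The annotated span exceeded the exonic length in all 6931, so each carries at least 1 intron in the annotation, and the median span was 2435 bases against 8039 bases. Although they are annotated as non-coding, 120 rows carried a protein domain label, led by V-set with 20, Lectin_C with 11 and RVT_1 with 11. Reads fell on 78 of these 120 genes, and LOC113112703, labelled PfkB, had the highest mean at 11.7 FPKM.

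Skin markers were present in every library. Keratinocyte genes, mainly keratins, took 0.893% to 5.41% of the counted reads, and collagens and other dermal genes took 1.87% to 14.6%. Melanophore genes took 0.00199% to 0.00773% in brown, 0.00245% to 0.00676% in yellow and 0.000129% to 0.000230% in white libraries. Xanthophore genes overlapped between colors, at 0.00246% to 0.00731%, 0.00594% to 0.0152% and 0.00257% to 0.00709%. The part of pigment cell content in lncRNA levels was not tested. Skeletal muscle genes took 5.96%, 2.41% and 19.5% of the reads in brown libraries 1 to 3, 0.275%, 0.832% and 26.3% in yellow libraries 1 to 3, and 2.13%, 11.7% and 32.9% in white libraries 1 to 3. The library numbered 3 therefore held the most muscle reads in each color. Hemoglobin genes of blood took 0.128%, 0.370% and 0.178% of the reads in brown, 0.118%, 0.194% and 0.727% in yellow and 0.137%, 0.0724% and 0.387% in white libraries 1 to 3, most in brown 2, yellow 3 and white 3. In bulk skin, fewer cells of a type and less RNA per cell cannot be told apart.

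Most lncRNA genes had no or few counted reads in these libraries. No read was counted on 2993 of 6931 lncRNA genes (43.2%) in any library, against 12.1% of 53065 protein-coding genes. Of the 3938 with a read, 1049 had at most 3 reads over all 9 libraries. Among lncRNA genes with a read, the median of the mean FPKM was 0.0919, with quartiles of 0.0247 and 0.380, against 0.976 for protein-coding genes with a read. The ratio of those medians was 10.6, and it was 11.0 on TPM, where the values of each library are rescaled to a common sum. A mean of at least 1 FPKM was reached by 523 lncRNA genes (7.55%, against 43.6% of protein-coding genes), at least 10 FPKM by 83, at least 100 FPKM by 8 and at least 1000 FPKM by 3. At these depths, no counted read does not show that a gene is untranscribed. The libraries were made with an mRNA-Seq kit, and the part of the library type in these levels was not tested.

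The lncRNA genes were also found in fewer libraries. Reads were found in all 9 libraries for 663 lncRNA genes, or 16.8% of those with any read, against 60.1% of protein-coding genes with any read. In 1 to 3 libraries only were reads found for 1778 lncRNA genes, or 45.1% of those with any read, against 13.4% for protein-coding genes. A gene with few reads cannot be seen in many libraries, and the part of depth in breadth was not tested. Genes of like mean level can be set side by side on another measure, the coefficient of variation (SD over mean) across the 9 libraries. Between 1 and 2 FPKM its median was 0.746 over 188 lncRNA genes and 0.497 over 5900 protein-coding genes. Between 10 and 50 FPKM it was 0.682 over 67 lncRNA genes and 0.445 over 3395 protein-coding genes, and from 50 FPKM upward 0.554 over 16 and 0.545 over 892. In the lowest of these ranges the median lncRNA gene rested on 210.5 reads and the median protein-coding gene on 645 reads, and the part that read number has in the difference was not tested.

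**Figure D1:**
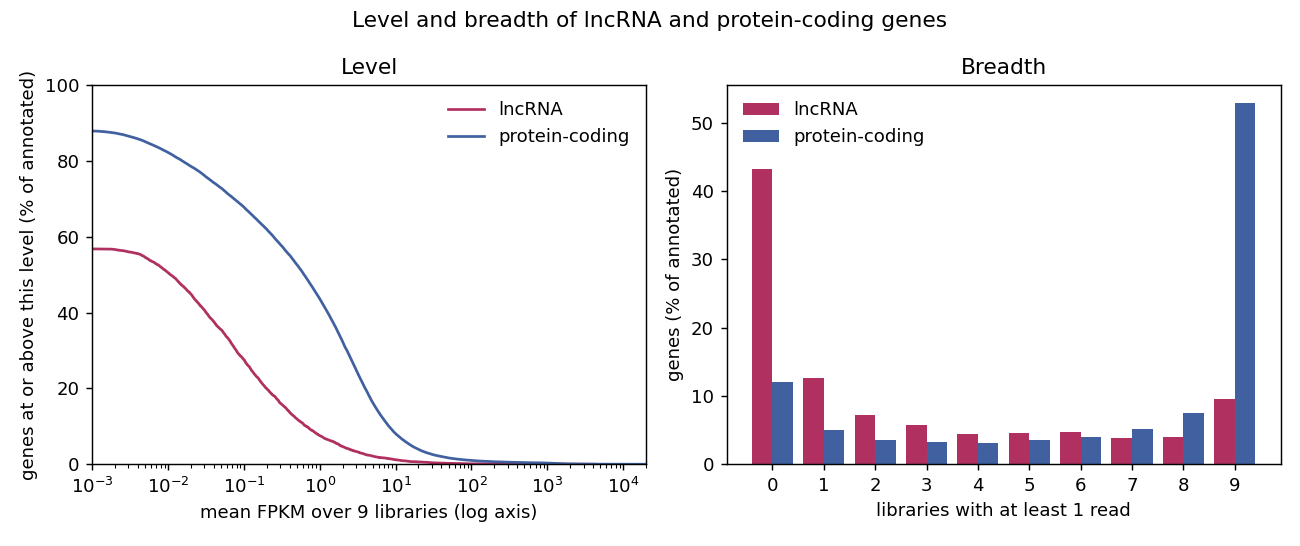
Left, the percent of annotated genes at or above a mean FPKM (log axis), and right, the percent with a read in 0 to 9 libraries, for 6931 lncRNA and 53065 protein-coding genes. The lncRNA curve lies below the protein-coding curve throughout, and 43.2% of lncRNA genes against 12.1% of protein-coding genes sit at 0 libraries.

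A small number of genes carried most lncRNA reads. The 10 most abundant took 60.5% to 74.4% of all lncRNA reads in a library, and the most abundant, LOC113118172, took 11.2% to 35.5%. LOC113118172 had a mean of 4332 FPKM, rank 15 among all genes. It was followed by LOC113065455 (1609 FPKM, rank 74) and LOC113056150 (1568 FPKM, rank 78). The next were LOC113118171 (878 FPKM), LOC113113505 (364 FPKM), LOC113118173 (305 FPKM) and LOC113091107 (216 FPKM), and the list ended with LOC113117441 (145 FPKM), LOC113112296 (88.2 FPKM) and LOC113039576 (86.0 FPKM). LOC113091107, on unplaced sequence, has an exonic length of 6506 bases and took 11.6% of all lncRNA reads at rank 362 by FPKM.

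LOC113118171, LOC113118172 and LOC113118173 lie side by side on chromosome 18, all on the plus strand. LOC113118171 spans 3708112 to 3712276, LOC113118172 spans 3713240 to 3714221 and LOC113118173 spans 3715191 to 3717467, with gaps of 963 and 969 bases. The first starts 760 bases downstream of LOC113118170, annotated as ADP-ribosylation factor 4, a small GTPase of vesicle traffic at the Golgi, whose mean was 2.67 FPKM. The 3 lncRNA genes and the ADP-ribosylation factor gene thus share a strand and a direction but not a level. Together the 3 lncRNA genes held 22.0%, 9.76% and 4.33% of all lncRNA reads for LOC113118172, LOC113118171 and LOC113118173 in that order.

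LOC113118172 had 4298, 12152 and 3124 FPKM in brown libraries 1 to 3, 4019, 2056 and 7152 FPKM in yellow libraries 1 to 3, and 1253, 1586 and 3347 FPKM in white libraries 1 to 3. Brown 2 and yellow 3 stood highest, and the colors overlapped, since brown 3 lay below white 3 and yellow 2 below it as well. Within each color the highest library was the one with the most hemoglobin reads, whose part in these values was not tested. The means were 6525 ± 4909 FPKM in brown, 4409 ± 2570 FPKM in yellow and 2062 ± 1125 FPKM in white (SD, n = 3 each). The log2(FPKM + 1) difference of brown against white was 1.54 (SE 0.74, limma adjusted p = 0.788). Its neighbor LOC113118171 had 816, 1668 and 987 FPKM in brown, 851, 628 and 1636 FPKM in yellow and 382, 339 and 596 FPKM in white libraries 1 to 3. Here every brown and every yellow library lay above every white library. The difference was 1.37 for brown against white (SE 0.56, limma adjusted p = 0.788). LOC113118173 had 472, 243 and 172 FPKM in brown, 472, 376 and 257 FPKM in yellow and 292, 284 and 175 FPKM in white libraries 1 to 3. For this gene the library numbered 3 was the lowest in each color, the reverse of the 2 genes before it in yellow and white, and the colors overlapped.

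LOC113065455, on the minus strand of chromosome 48 from 1320991 to 1322115, had 1352, 988 and 2896 FPKM in brown, 1370, 976 and 2213 FPKM in yellow and 1323, 1299 and 2060 FPKM in white libraries 1 to 3. In FPKM the library numbered 3 was the highest in each color. White libraries 1 to 3 counted 12938, 10215 and 10130 reads on it, yellow 12080, 9261 and 11154, and brown 13114, 6699 and 14487. In reads, white 3 was thus the lowest white library and yellow 3 lay below yellow 1. The colors lay at the same level in FPKM, with means of 1745 ± 1013, 1520 ± 632 and 1560 ± 433 FPKM in brown, yellow and white (SD, n = 3 each). LOC113056150, on chromosome 37, lies tail to tail with a glutamate dehydrogenase gene at 406 bases. It averaged 2238 ± 963 FPKM in brown, 1437 ± 209 FPKM in yellow and 1030 ± 529 FPKM in white (SD, n = 3 each). LOC113113505, on chromosome 14, had 337, 713 and 725 FPKM in brown, 295, 227 and 214 FPKM in yellow, and 270, 72.1 and 419 FPKM in white libraries 1 to 3. Brown stood above yellow in every library here, while brown 1 lay below white 3.

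LOC113112296, on chromosome 13 from 1264947 to 1266271, was the most even lncRNA gene with a mean of at least 5 FPKM, with a coefficient of variation of 0.186. It had 80.7, 107 and 72.2 FPKM in brown, 75.5, 96.9 and 76.6 FPKM in yellow and 74.6, 119 and 91.7 FPKM in white libraries 1 to 3. Its nearest protein-coding gene, a serine/threonine-protein kinase 32C-like gene 2566 bases away tail to tail, had at most 0.297 FPKM. LOC113039128, LOC113052093, LOC113039480 and LOC113044627 followed, with coefficients between 0.198 and 0.264. LOC113052093 lies 409 bases tail to tail from arl2, a small GTPase gene, and ranged from 6.53 to 13.2 FPKM over the 9 libraries.

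**Figure D2:**
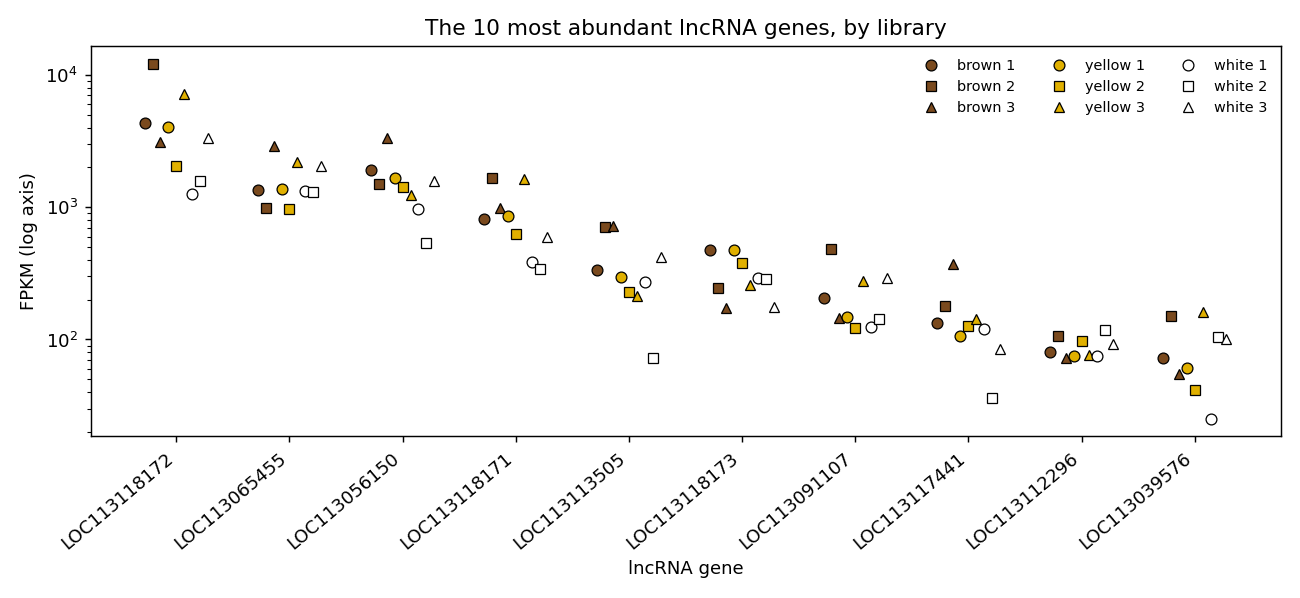
FPKM (log axis) of the 10 lncRNA genes with the highest mean, with 1 point per library for brown, yellow and white skin. LOC113118172 runs from 1253 to 12152 FPKM, while LOC113112296 stays between 72.2 and 119 FPKM.

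Of all counted reads, lncRNA genes took 1.502%, 2.37% and 0.904% in brown libraries 1 to 3, 1.36%, 1.07% and 1.25% in yellow libraries 1 to 3, and 0.956%, 0.726% and 0.835% in white libraries 1 to 3. All 3 yellow libraries lay above all 3 white libraries, whereas brown 3 lay within the white range. The means were 1.59% ± 0.738 in brown, 1.23% ± 0.147 in yellow and 0.839% ± 0.115 in white (SD, n = 3 each). The difference was 0.754 percentage points for brown against white (exact permutation test, two-sided, p = 0.2), 0.388 for yellow against white (exact p = 0.1) and 0.366 for brown against yellow (exact p = 0.6). With 3 libraries against 3, 0.1 is the smallest p this test allows, and adjusted over the 3 comparisons the p-values were 0.3, 0.3 and 0.6. The 95% Wilson intervals, which cover counting error only, reached at most from 2.36% to 2.38%, for brown 2. Without LOC113118172 the means were 1.16% in brown, 0.959% in yellow and 0.721% in white, and without the 10 most abundant genes 0.442%, 0.395% and 0.319%. Without brown 2, the difference was 0.364 percentage points for brown against white and -0.0238 for brown against yellow, and without brown 3 the difference of brown against yellow was 0.710.

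The number of lncRNA genes with a read was 2377, 1514 and 1635 in brown, 2251, 2393 and 1271 in yellow, and 2402, 2198 and 1886 in white libraries 1 to 3. Yellow 3, brown 2 and brown 3 had the fewest, and the colors overlapped. The means were 1842 ± 467 in brown, 1972 ± 611 in yellow and 2162 ± 260 in white (SD, n = 3 each), with exact permutation p-values of 0.3 for brown against white, 0.8 for yellow against white and 0.9 for brown against yellow, two-sided. Protein-coding genes with a read were also fewest in yellow 3 and brown 2, at 32346 and 34301. Counted at 1 FPKM or more, the number of lncRNA genes was 529, 629 and 491 in brown, 486, 455 and 622 in yellow and 451, 449 and 535 in white. Brown 2 and yellow 3 then held the most, so the order of libraries depends on the threshold.

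**Figure D3:**
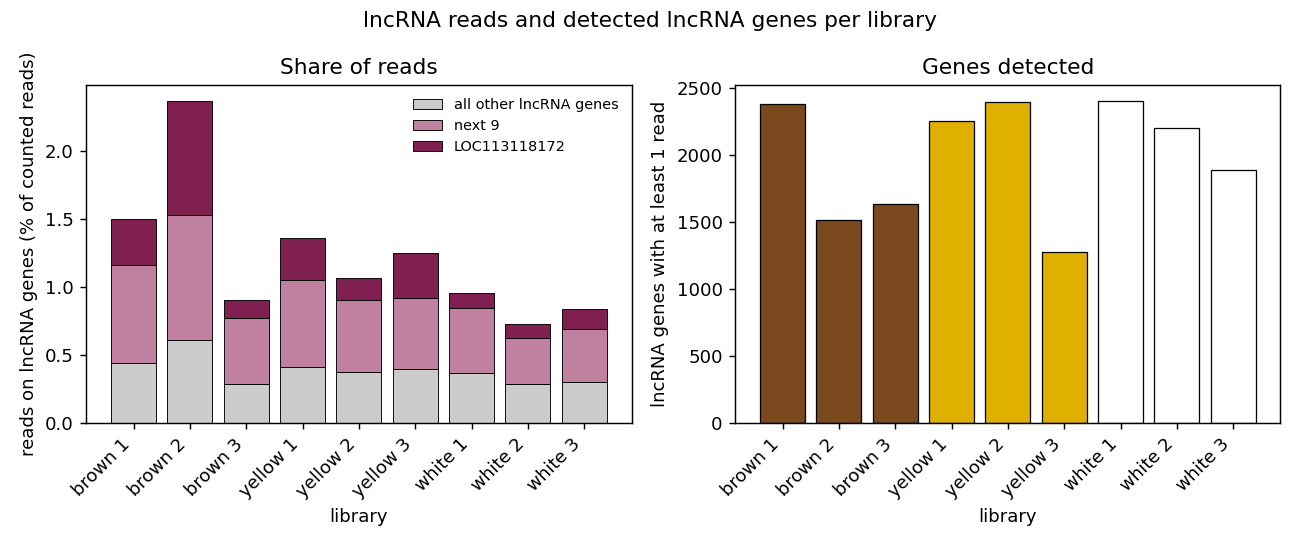
Left, reads on lncRNA genes as percent of counted reads, and right, lncRNA genes with at least 1 read, with 1 bar per library in the order brown, yellow, white. Brown 2 has the highest share, 2.37%, and yellow 3 the fewest lncRNA genes with a read, 1271.

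Differences between colors were tested gene by gene for the 625 lncRNA genes (9.02% of all, against 46.8% of protein-coding genes) with at least 1 FPKM in at least 3 libraries. The fit was limma on log2(FPKM + 1) over all 27420 such genes, with p-values adjusted over all of them. A gene that reaches 1 FPKM only in the 3 libraries of a single color had to differ to be tested at all. This held for 7 of the 625 lncRNA genes (1.12%), 4 through brown, 2 through yellow and 1 through white, against 0.233% of all tested genes. The profiles of these 625 genes did not separate by color. The correlation of log2(FPKM + 1) between libraries was 0.628 to 0.885 over the 9 pairs of the same color and 0.596 to 0.917 over the 27 pairs of different colors, as a description across genes that share libraries.

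The brown libraries against the white ones had 0 lncRNA genes past an adjusted p of 0.05 in limma, where 0.0365% of all tested genes passed. In voom on the reads recovered from the FPKM, 0 passed too. Before adjustment, 65 of 625 lncRNA genes (10.4%) had a limma p under 0.05, against 5.72% of all tested genes. Voom gave 39 (6.24%, against 5% of all tested genes), with 36 higher in brown (5.76%, against 3.29%) and 3 lower (0.48%, against 1.71%). Of the 65, 47 (7.52%) were higher in brown, where 3.51% of all tested genes were, and 18 (2.88%) were lower, against 2.21%. The libraries of the 2 colors did not overlap in 78 lncRNA genes (12.5%), against 10.9% of all tested genes, with 58 higher (9.28%, against 5.74%) and 20 lower (3.20%, against 5.18%) in brown. The median log2 difference was 0.23 over the 625 lncRNA genes and -0.02 over all tested genes, and 65.1% of the lncRNA genes lay above 0, against 48.4%. On TPM, where the median of all tested genes moved to -0.20, the lncRNA median was 0.06. On that scale 33 of 872 tested lncRNA genes (3.78%) were higher at an unadjusted p under 0.05 and 20 (2.29%) lower, against 1.30% and 0.980% of all tested genes. Without any filter on low values, 210 of 3938 lncRNA genes (5.33%) had an unadjusted p under 0.05, close to the 5.17% of all genes, and 93 were higher and 117 lower in brown. In limma on FPKM the larger share and the lean toward brown among lncRNA genes thus hold for the better covered genes and not over all genes with a read. On TPM the share was larger both for higher and for lower genes. In voom on the same 625 genes the share lay nearer to that of all tested genes, while the lean toward brown remained. Without white 2 the unadjusted limma count was 35 (5.84%, against 2.19% of all genes) and without brown 2 it was 38 (6.63%, against 3.06%). Without the 3 muscle-rich libraries numbered 3 it was 124 of 484 (25.6%), against 12.5% of all genes.

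The lncRNA gene with the smallest p in that comparison was LOC113048019, on the minus strand of chromosome 29 from 9677032 to 9678259. It had 58.8, 96.8 and 68.1 FPKM in brown, 30.4, 37.5 and 50 FPKM in yellow and 11.3, 8.96 and 29.3 FPKM in white libraries 1 to 3. In FPKM the 3 colors did not overlap, with brown highest, yellow between and white lowest. In reads, brown 3 counted 831 and yellow 2 counted 868, from 16930651 and 16917243 counted reads, so brown and yellow overlapped there. The means were 74.5 ± 19.8, 39.3 ± 9.95 and 16.5 ± 11.1 FPKM in brown, yellow and white (SD, n = 3 each), and the log2 difference was 2.25 for brown against white (SE 0.48, limma adjusted p = 0.673). It starts head to head, 1363 bases from LOC113048018, a SAFB-like transcription modulator gene whose family binds chromatin and RNA. That neighbor had 1.19, 0.683 and 0.926 FPKM in brown, 1.28, 1.26 and 2.17 FPKM in yellow and 1.72, 1.51 and 1.41 FPKM in white libraries 1 to 3. Over the 9 libraries the levels of the lncRNA and its neighbor had a Spearman correlation of -0.73, as a description of libraries that share depth and muscle content.

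LOC113070076, on unplaced sequence and head to head at 684 bases with a LIAT1-like gene, had 9.15, 9.04 and 17 FPKM in brown, 9.03, 9.50 and 9.95 FPKM in yellow and 1.63, 1.72 and 4.96 FPKM in white libraries 1 to 3. Every brown and yellow library lay above every white library, by a log2 difference of 1.81 in brown (SE 0.39, limma adjusted p = 0.686) and 1.59 in yellow (SE 0.39, limma adjusted p = 0.845). LOC113067121, on chromosome 50 and tail to tail with a ras association domain gene at 1131 bases, had 21.5, 45.1 and 45.9 FPKM in brown, 22.1, 16.6 and 55.2 FPKM in yellow and 1.28, 6.40 and 14.0 FPKM in white libraries 1 to 3. White was again below every library of the other colors, although the white libraries spread from 1.28 to 14.0 FPKM. LOC113059645, on chromosome 41, lies 903 bases tail to tail from a peptidyl-prolyl cis-trans isomerase gene of the FKBP type, a class of protein-folding enzymes. It had 5.34, 6.28 and 4.12 FPKM in brown, 6.64, 6.14 and 0.704 FPKM in yellow and 0.581, 0 and 1.15 FPKM in white, so that yellow 3 fell within the white range. Reads pooled over libraries were 10.6-fold higher in brown than in white, from 324 and 32 reads, 6.93-fold without white 2 and 16.6-fold without white 3.

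In FPKM, LOC113077948, LOC113092870 and LOC113047103 also stood higher in brown than in white in every library. In reads, brown 3 and white 1 both counted 91 on LOC113077948, and they counted 62 and 72 on LOC113092870. LOC113077948 averaged 5.50 ± 2.16 FPKM in brown, 3.37 ± 1.24 FPKM in yellow and 1.57 ± 0.205 FPKM in white (SD, n = 3 each). LOC113092870, which carries a domain label of the SPRY type, averaged 4.55 ± 1.73, 4.02 ± 1.80 and 0.977 ± 0.612 FPKM in brown, yellow and white. LOC113047103 averaged 2.43 ± 0.866, 2.14 ± 0.646 and 0.643 ± 0.419 FPKM in brown, yellow and white, on 49, 48 and 15 reads. Their limma adjusted p for brown against white was 0.788 each. LOC113095381 was the only one of the 10 smallest p-values that was lower in brown, with 0, 0.310 and 0.105 FPKM in brown, 0.418, 0.443 and 0 FPKM in yellow and 1.24, 1.20 and 3.42 FPKM in white libraries 1 to 3. The values rest on 5 reads in brown and 73 in white. It entered the test only through the 3 white libraries, so no test of its difference is given. It overlaps, on the opposite strand, a GTPase IMAP family member 8-like gene, of a family known from lymphocytes, on which no read was counted.

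LOC113078668, on unplaced sequence, had many reads in some libraries and few or none in others. It had 37.9, 6.22 and 15.9 FPKM in brown, 0.114, 30.7 and 0 FPKM in yellow, and 0 reads in all 3 white libraries. Its 974 brown reads put it at least 341-fold higher in brown than in white, taken against a floor of 3 reads over the white libraries. Without brown 1 that bound was 154, and without white 1 or white 2 it was 193 or 222. In yellow the 581 reads came almost wholly from yellow 2, so the bound against white was 187-fold with it and 1.09-fold without it. Without yellow 1 that bound was 299.8-fold, and without white 1 or white 2 it was 106-fold or 122-fold. The limma adjusted p for brown against white was 0.788 with an SE of 1.17 on the log2 scale, the widest of the 10 genes. LOC113079590 had 1.15, 2.78 and 2.09 FPKM in brown, 0.396, 0.221 and 0 FPKM in yellow and 0.214, 0.888 and 0 FPKM in white libraries 1 to 3. Brown stood above both other colors in every library, on 58, 8 and 13 reads in brown, yellow and white. It entered the test only through the 3 brown libraries, so this order is partly set by the filter.

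**Figure D4:**
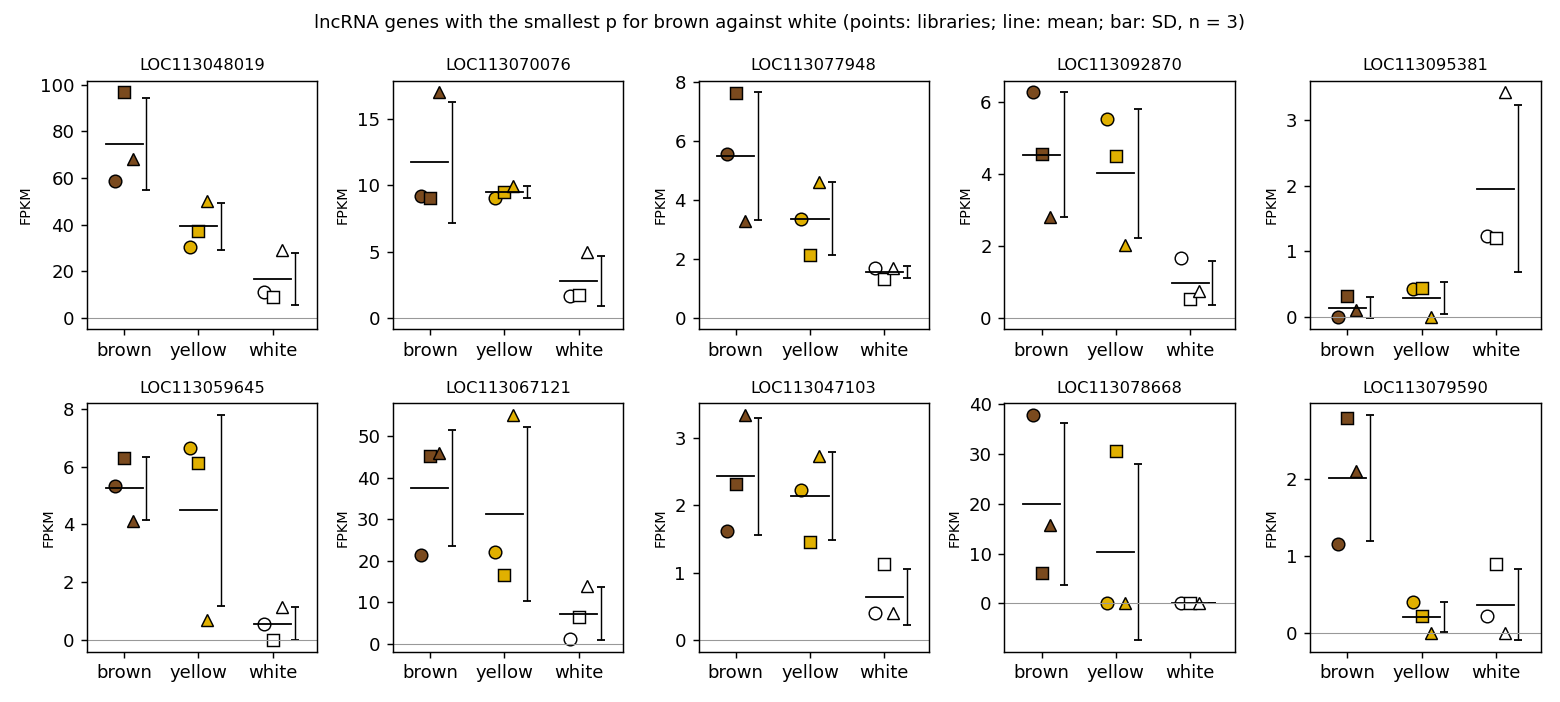
FPKM by color for lncRNA genes with the smallest unadjusted limma p for brown against white, with 1 point per library, a line at the mean and a bar for the SD (n = 3). In LOC113048019 the 3 colors separate in FPKM, although brown 3 has fewer reads than yellow 2. In LOC113078668 all white libraries are at 0 and only yellow 2 is high among the yellow libraries. LOC113095381 and LOC113079590 passed the filter only through white and only through brown, so their order is partly set by the filter.

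The yellow libraries against the same white libraries had 0 lncRNA genes past an adjusted p of 0.05 in limma and in voom, where 0.0438% of all tested genes passed in limma. Before adjustment, 28 of 625 (4.48%) had a limma p under 0.05, against 3.5% of all tested genes, and voom gave 21 (3.36%, against 3.06%). Of the 28, 26 (4.16%) were higher in yellow, against 2.47% of all tested genes, and 2 (0.320%) were lower, against 1.04%. The libraries did not overlap in 61 lncRNA genes (9.76%), against 9.64% of all tested genes, with 49 higher (7.84%, against 5.09%) and 12 lower (1.92%, against 4.54%) in yellow. The median log2 difference was 0.08 over the lncRNA genes and -0.03 over all tested genes. On TPM, 29 of 872 tested lncRNA genes (3.33%) were higher and 8 (0.917%) lower at an unadjusted p under 0.05, against 1.34% and 0.693% of all tested genes. Without a filter, 144 of 3938 (3.66%, against 3.39% of all genes) had an unadjusted p under 0.05, 55 higher and 89 lower in yellow.

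LOC113075112, on unplaced sequence, had the smallest p for yellow against white, with a limma adjusted p of 0.603. It had 5.75, 9.07 and 4.27 FPKM in yellow, 3.65, 0.680 and 2.77 FPKM in brown and 0.157, 0.977 and 1.25 FPKM in white libraries 1 to 3. In FPKM yellow was the highest color in every library, while in reads yellow 3 counted 14 and brown 1 counted 23. The log2 difference of yellow from white was 2.04 (SE 0.44), on 103 reads in yellow and 10 in white. LOC113043836, on chromosome 25, was far better covered, with 1659 reads in yellow and 678 in white. It had 50.1, 36.2 and 58.8 FPKM in yellow, 28.6, 35.2 and 17.5 FPKM in brown and 25.4, 15.8 and 14.0 FPKM in white libraries 1 to 3. All yellow libraries exceeded all others, and the log2 difference from white was 1.36 (SE 0.41, limma adjusted p = 1). LOC113041024, on chromosome 23 and tail to tail at 2201 bases with an adenosine receptor A1-like gene, has an exonic length of 8539 bases. It had 8.50, 13.6 and 2.76 FPKM in yellow, 7.29, 3.56 and 7.37 FPKM in brown and 1.47, 1.43 and 2.08 FPKM in white libraries 1 to 3. White was the lowest color in every library, and the log2 difference of yellow against white was 1.61 (SE 0.48, limma adjusted p = 1). LOC113066469 and LOC113059671, on chromosomes 50 and 41, were also highest in yellow, with means of 2.28 ± 1.00 and 1.89 ± 0.834 FPKM in yellow against 0.487 ± 0.111 and 0.161 ± 0.201 FPKM in white (SD, n = 3 each). Both entered the test only through the 3 yellow libraries, so their order is partly set by the filter.

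The brown libraries against the yellow ones had 0 lncRNA genes past an adjusted p of 0.05 in limma and in voom, and 0% of all tested genes passed in limma. Before adjustment, 21 of 625 (3.36%) had a limma p under 0.05, against 1.67% of all tested genes, and voom gave 10 (1.6%, against 1.1%). Of the 21, 12 (1.92%) were higher in brown, against 0.996% of all tested genes, and 9 (1.44%) were lower, against 0.671%. The libraries did not overlap in 44 lncRNA genes (7.04%), against 5.22% of all tested genes, with 34 higher (5.44%, against 2.64%) and 10 lower (1.60%, against 2.57%) in brown. Without yellow 3 the unadjusted count was 58 (9.97%, against 6.10% of all genes), without brown 1 it was 40 (6.84%, against 3.16%) and without yellow 1 it was 14 (2.36%, against 1.14%). The median log2 difference was 0.12 over lncRNA genes and 0.01 over all tested genes. On TPM these medians were -0.07 and -0.22, with 7 of 872 lncRNA genes (0.803%) higher and 13 (1.49%) lower in brown at an unadjusted p under 0.05, against 0.408% and 0.436% of all tested genes, so the sign of the lncRNA median depends on the scale.

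The smallest p belonged to LOC113090294, which overlaps a TATA box-binding protein-associated factor gene on the same strand, so that reads of the 2 genes may be split between them. It had 1.63, 1.83 and 1.13 FPKM in brown, 0, 0.476 and 0 FPKM in yellow and 0.462, 0.431 and 0.230 FPKM in white libraries 1 to 3. Brown exceeded every other library, on 30 reads against 4 in yellow. It entered the test only through the 3 brown libraries, so no test of its difference is given. LOC113091418, on unplaced sequence, had 7.21, 5.62 and 5.48 FPKM in brown, 3.87, 2.50 and 1.13 FPKM in yellow and 5.47, 1.87 and 3.13 FPKM in white. In FPKM brown lay above yellow in every library and above white as well. The nearest values were 5.48 FPKM in brown 3 and 5.47 FPKM in white 1. In reads, brown 3 counted 82, below yellow 1 at 102 and white 1 at 160. LOC113113036, on chromosome 13, starts head to head with a pleckstrin homology domain gene 202 bases away, and averaged 1.75 ± 0.731 FPKM in brown and 0.471 ± 0.227 FPKM in yellow (SD, n = 3 each), and it too entered the test through the brown libraries alone. LOC113040269, on chromosome 22, went the other way, with 1.36, 0 and 0.294 FPKM in brown, 6.50, 3.25 and 2.04 FPKM in yellow and 9.32, 1.31 and 2.09 FPKM in white libraries 1 to 3. In FPKM brown was below every yellow library there, while brown 1 exceeded white 2. In reads, brown 1 counted 9 and yellow 3 counted 7. LOC113054618 and LOC113067517 were higher in brown, with means of 3.12 ± 2.56 and 5.37 ± 3.95 FPKM in brown against 0.282 ± 0.318 and 1.06 ± 0.505 FPKM in yellow (SD, n = 3 each).

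Genes with reads in all 3 libraries of a color and none in the other 6 were few and shallow. There were 2 such lncRNA genes for brown, 1 for yellow and 5 for white, and the most reads on any of them were 18, 13 and 8. LOC113040366, on chromosome 22, was the brown gene with 18 reads, at 0.0395, 0.734 and 0.306 FPKM. In the opposite pattern, 3 lncRNA genes lacked reads in brown, 1 in yellow and 3 in white while all other libraries had them. LOC113039374, also on chromosome 22, was the best covered, with 62 reads, at 0.792, 0.809 and 7.68 FPKM in brown and 0.374, 0.231 and 2.18 FPKM in yellow, and 0 reads in white. Of lncRNA genes with a read, those found only in brown, yellow or white were 0.0508%, 0.0254% and 0.127%, against 0.0193%, 0.00643% and 0.0793% of protein-coding genes, from 9, 3 and 37 genes. Those absent from a color were 0.0762%, 0.0254% and 0.0762%, against 0.0300%, 0.0150% and 0.0343% of protein-coding genes, from 14, 7 and 16 genes.

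Position relative to protein-coding genes was taken from the coordinates in the files. Of 6931 lncRNA genes, 1509 (21.8%) overlapped a protein-coding gene, 1153 of them on the opposite strand and 356 on the same strand, and 30 overlapped genes on both strands. Opposite-strand overlap took 16.6% of lncRNA genes, against 7.04% of protein-coding genes set against other protein-coding genes. Within 5000 bases but without overlap lay 604 head to head, 431 tail to tail, 656 upstream and 606 downstream on the same strand. A further 2689 (38.8%, against 23.0% of protein-coding genes) were more than 5000 bases away, and 436 were on a sequence with no protein-coding gene. The median distance of those that did not overlap was 5924 bases, with quartiles of 1556 and 17844 bases. Other lncRNA genes lay within 5000 bases of, or overlapped, 1315 of them.

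The share of genes above the filter on low values differed between positions, which is given as a description. Of tail-to-tail lncRNA genes 16.2% passed the filter on low values and of head-to-head genes 13.7%, against 7.37% of those overlapping on the opposite strand and 6.19% of those on a sequence without a protein-coding gene. The median mean FPKM of genes with a read was 0.160 for tail to tail, 0.139 for head to head, 0.0748 for opposite-strand overlap and 0.0722 without a protein-coding gene. The kit and the labels do not give a strand setting for the counting, so reads from a gene and an overlapping gene on the other strand cannot be told apart.

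**Figure D5:**
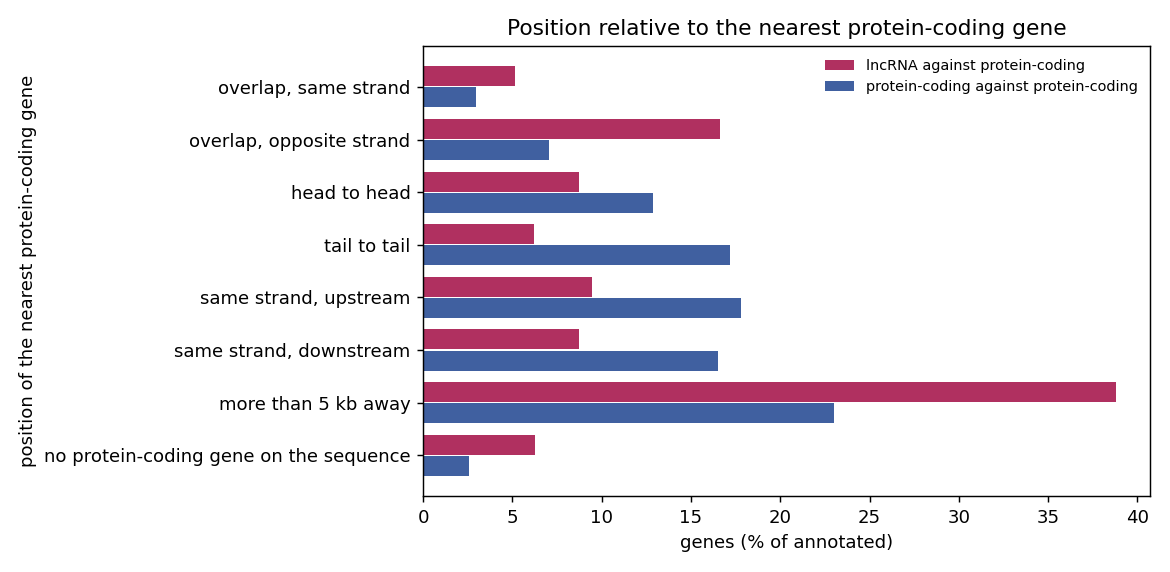
Percent of annotated genes in each position relative to the nearest protein-coding gene, for lncRNA genes and for protein-coding genes set against other protein-coding genes. Opposite-strand overlap holds 16.6% of lncRNA genes against 7.04% of protein-coding genes, and distances above 5 kilobases hold 38.8% against 23.0%.

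Levels of an lncRNA gene and of its nearest protein-coding gene were weakly related over the 9 libraries. Over 239 pairs within 5000 bases that both passed the filter, the median Spearman correlation was 0.117, with 31 pairs (13.0%) above 0.7 and 11 (4.603%) below -0.7. Over 10400 pairs of neighboring protein-coding genes the median was 0.0667, with 10.2% above 0.7 and 5.93% below -0.7. By position the median was 0.233 for 35 lncRNA genes downstream on the same strand, where protein-coding pairs had 0.0833, 0.133 for 50 head-to-head pairs against 0.05, and 0.0667 for 47 tail-to-tail pairs against 0.05. It was below the protein-coding median in the other positions, at 0.0333 against 0.0833 for 43 upstream genes, -0.025 against 0.0667 for 50 opposite-strand overlaps, 0.00833 against 0.167 for 14 same-strand overlaps and -0.075 against 0.133 for 80 pairs more than 5000 bases apart. These are descriptions without a test, since all pairs share the same 9 libraries with their depth and muscle content.

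The highest correlation, 0.983, belonged to LOC113062174 and LOC113062173 on chromosome 44, which lie 35 bases apart on the same strand. LOC113109617, 532 bases tail to tail from a claudin-23-like gene, a tight junction gene of epithelia, had a correlation of 0.917. It had 4.30, 2.07 and 2.23 FPKM in brown, 7.47, 5.08 and 0.0714 FPKM in yellow and 4.08, 0.640 and 1.02 FPKM in white libraries 1 to 3. The claudin gene had 7.18, 4.42 and 3.73 FPKM in brown, 7.28, 6.98 and 1.25 FPKM in yellow and 5.23, 0.240 and 1.19 FPKM in white, so both were low in yellow 3, white 2 and white 3. Those libraries also had the lowest keratinocyte shares of reads, 0.893%, 1.00% and 0.903%, against 1.97% to 5.41% in the others. The part of keratinocytes in that was not tested. LOC113097532, 104 bases downstream of obsl1, which encodes a cytoskeletal linker related to muscle obscurin, had 1.08, 0.516 and 6.29 FPKM in brown, 0, 0.184 and 20.4 FPKM in yellow and 0.223, 1.501 and 8.80 FPKM in white libraries 1 to 3. Both genes of this pair were highest in FPKM in the library numbered 3 of each color, which also held the most muscle reads. The part of muscle or of the library scaling in that was not tested. LOC113077347, 422 bases downstream of an RNF144A-A-like ubiquitin ligase gene, followed its neighbor with a correlation of 0.9 and was highest in brown 2, at 10.03 FPKM.

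Of 9 lncRNA genes that overlapped or lay within 5000 bases of a gene on the pigment list, 7 had a read (77.8%, against 56.8% of all lncRNA genes) and 0 passed the filter on low values (against 9.02%). LOC113100300 had the most reads, 21. It lies 2210 bases tail to tail from a tyrosinase-like gene, which encodes the first enzyme of melanin synthesis, and had 0.158, 1.58 and 0 FPKM in brown, 0 reads in yellow and 0.156, 0.194 and 0.155 FPKM in white libraries 1 to 3. The tyrosinase-like gene itself had 0.745, 2.13 and 0.513 FPKM in brown, 2.12, 0.811 and 0.601 FPKM in yellow and 0.214, 0.178 and 0.237 FPKM in white, with every brown and yellow library above every white one. Yellow had no read on LOC113100300, and 14 of its 21 reads lay in brown 2. With so few reads, whether it follows the tyrosinase-like gene cannot be told. LOC113049111, upstream of a diacylglycerol O-acyltransferase 2-like gene of fat synthesis, had 11 reads in all. The other 7, beside genes such as agouti signaling protein, a melanocortin receptor antagonist, Pax-7, a xanthophore factor in zebrafish, and a melanocyte-stimulating hormone receptor-like gene, had 0 to 4 reads each.

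Near genes of the cell type lists lay 44 lncRNA genes. Of these, 30 had a read (68.2%, against 56.8% of all lncRNA genes) and 3 passed the filter (against 9.02% of all lncRNA genes). The highest was LOC113051652, on chromosome 32 near a fast skeletal troponin T gene, part of the calcium switch of muscle, with 1.04, 0 and 1.35 FPKM in brown, 0.862, 0.534 and 1.51 FPKM in yellow and 0.431, 2.79 and 7.72 FPKM in white libraries 1 to 3. In FPKM the library numbered 3 was its highest in each color, while in reads brown 3 lay below brown 1, at 8 against 12. LOC113051652 also overlaps, on the opposite strand, a lymphocyte-specific protein 1-like gene that had 22.6 to 45 FPKM. Without strand information its reads may belong to that gene. LOC113112690, on chromosome 13, overlaps a skeletal actin gene on the opposite strand and had 0.524, 3.64 and 0.363 FPKM in brown, 0.329, 0.268 and 4.82 FPKM in yellow and 0.371, 0.415 and 0.959 FPKM in white libraries 1 to 3, highest in brown 2 and yellow 3. Its Spearman correlation with that actin gene was 0.05. LOC113097723 overlaps fast skeletal myosin heavy chain genes, motor proteins of muscle, on the opposite strand, and had 0.154, 1.03 and 0.696 FPKM in brown, 0.0338, 0.0419 and 1.70 FPKM in yellow and 0.0407, 0.417 and 1.70 FPKM in white libraries 1 to 3. It was highest in yellow 3 and white 3, which held the most muscle reads, but brown 2 exceeded brown 3. Its correlation with the nearest of those myosin genes was 0.72. LOC113049514 overlaps a hemoglobin beta-like gene on the opposite strand and had 0, 1.96 and 0 FPKM in brown, 0.377, 0.0584 and 2.42 FPKM in yellow and 0, 0.141 and 1.01 FPKM in white, with a correlation of 0.76. Without strand information these reads may belong to either gene of the pair. LOC113119810, 974 bases tail to tail from a type I keratin gene, had 0.860, 1.39 and 1.44 FPKM in brown, 0.221, 0.703 and 0.276 FPKM in yellow and 0.511, 0.177 and 0.283 FPKM in white. Brown was highest in every library, while the keratin gene itself had at most 0.443 FPKM.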

How the data were processed

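Per the labels' protocols, total RNA of back skin went into a SMARTER mRNA-Seq library kit. The authors deposited 1 table per library with the FPKM of 74297 genes, their positions, lengths and biotypes. The submitters' processing notes list HISAT2 and StringTie. Not given in the sources used here are their versions, the genome build, the strand setting and the rule for reads that match several places, and goldfish carry duplicated genes, so values of near-identical copies are uncertain.

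FPKM multiplied by gene length gave whole reads for 100% of values within 0.001 reads. The implied library denominators were 0.675 to 1.39 times the counted reads and matched median-of-ratios size factors, so the deposited values already carry that scaling.

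Genes were tested in R 4.3.3 by limma-trend (limma 3.58.1), with log2(FPKM + 1) as the value, 9 libraries, color as the only term, genes with at least 1 FPKM in at least 3 libraries, and two-sided p-values with Benjamini-Hochberg adjustment at 0.05. The pseudocount of 1 understates changes of low genes. Per-library shares and gene numbers were compared by exact permutation. The tests were checked on simulated data. Neighbors are the nearest protein-coding genes on the same sequence, in a window of 5000 bases. The named genes are, per comparison, the 10 smallest p-values, the 10 highest means, those near pigment or cell marker genes with a mean of at least 0.1 FPKM, up to 3 restricted to or absent from a color, and the 5 most even. Pairs with the strongest neighbor correlation and the genes among the other observations were chosen after their values were seen. The members and lists were chosen with earlier results of these data known. Replicate numbers were not used to pair the samples, since the labels do not say what they stand for. Alternatives covered the pseudocount, filters, TPM, other scalings, voom, a replicate block, a muscle covariate, the 6 libraries compared, each library left out and the 3 libraries numbered 3 left out. Scaling by counted reads, counts without genes that passed the filter through a single color and shares without the most abundant genes were added after seeing the data. Python 3.11.15, pandas 2.3.3 and scipy 1.17.1 were used. No sequence is shown, since none was given for this assembly.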

Additional observations from a re-analysis of the deposited data

How the results depend on the processing

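In each of the 3 color comparisons, 0 lncRNA genes passed an adjusted p of 0.05 under the main setting and under all 22 alternatives, with lowest adjusted p-values of 0.087 for brown against white, 0.155 for yellow against white and 0.414 for brown against yellow. With 1 library left out, the counts at an unadjusted p under 0.05 lay between 35 and 91, 22 and 42, and 14 and 58 in that order. For brown against white these were 5.84% and 15.6% of lncRNA genes, where all tested genes had 2.19% and 7.96%. For yellow against white they were 3.67% and 6.97%, against 1.94% and 2.85%. For brown against yellow they were 2.36% and 9.97%, against 1.14% and 6.10%. The median lncRNA difference of yellow against white lay between -0.01 and 0.23 on the log2 scale. With a replicate block, 0 were called and the unadjusted counts were 90, 41 and 30 (14.4%, 6.56% and 4.8%, against 7.76%, 5.65% and 2.91% of all tested genes). The labels do not say what the replicate numbers stand for, so the main fit did not treat them as pairs. Same-numbered libraries' deviations from their color means correlated from -0.302 to 0.766, with 7 of 9 pairs above 0.1. Pairs with different numbers ran from -0.691 to 0.611. Whether the numbers mark a shared factor was not tested. With the muscle covariate the unadjusted counts were 107, 66 and 48 of 625 (17.1%, 10.6% and 7.68%, against 10.2%, 7.01% and 3.34% of all tested genes). Without a filter they were 210, 144 and 118 of 3938 genes (5.33%, 3.66% and 3.00%, against 5.17%, 3.39% and 2.26% of all genes). Of 660 possible alternative values of the named gene and comparison pairs, 61 could not be had because the gene failed that setting's filter, and the other 599 kept their direction and stayed above the threshold. These pairs were picked as the 10 smallest p-values per comparison in the same libraries, so a kept direction is no independent support. Some of them also passed the filter only through the color in which they are high. Leaving out the 7 lncRNA genes that passed the filter through a single color gave unadjusted counts of 61, 25 and 16 of 618 (9.87%, 4.05% and 2.59%, against 5.62%, 3.43% and 1.60% of all such genes).

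The lncRNA share of reads, brown minus yellow, ran from -0.0238 to 0.71 percentage points with 1 library left out. It stayed positive from 0.364 to 1.1 for brown minus white and from 0.322 to 0.467 for yellow minus white. The number of lncRNA genes detected reversed at a threshold of 1 FPKM, to 71.3 for brown minus white, 42.7 for yellow minus white and 28.7 for brown minus yellow. With 1 library left out it ran from -588 to -156 for brown minus white, from -401 to 160 for yellow minus white (reversed without yellow 3) and from -480 to 81 for brown minus yellow (reversed without brown 2, at 34.3, yellow 1, at 10, and yellow 2). The cause was not tested. Within 1000 bases or overlapping lay 2482 lncRNA genes, against 3806 at 5000 bases and 4589 at 10000 bases. The ratio of protein-coding to lncRNA level could not be computed from per-gene medians over the 9 libraries, since the median of these is 0 for lncRNA genes with a read.

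Most lncRNA genes rest on few reads, and the median SE was 0.48 on the log2 scale for the 625 tested, against 0.39 for all tested genes, which limits what 3 libraries a color can show.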

Other observations

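Some lncRNA genes reached 5 FPKM in some libraries and had no read in others. Of 326 lncRNA genes that reached 5 FPKM in at least 1 library, 26 (7.98%) had no read in 3 or more libraries, against 76 of 14112 protein-coding genes (0.539%). With 1 library left out the lncRNA count was 16 without brown 2, 17 without brown 3 or yellow 3, and at most 25, and the share ran from 5.43% to 7.72%, against 0.260% to 0.510% of protein-coding genes. A short gene reaches 5 FPKM on few reads, and lncRNA genes are shorter, with a median of 731 against 2331 bases. LOC113080617, 139 bases long, had 6.25 FPKM in yellow 3 on 10 reads, while LOC113065413, 1469 bases long, had 399 reads in white 1 and 0 in white 3. The part of read number in these shares was not tested. LOC113048362, upstream of a scavenger receptor gene on chromosome 29, had 14.0, 0 and 17.5 FPKM in brown, 45.8, 0 and 35.5 FPKM in yellow and 25.2, 0.110 and 0 FPKM in white libraries 1 to 3. Of the 26, 4 had reads in a single library. LOC113040204, LOC113039315 and LOC113040699, all on chromosome 22, were found in brown 3 alone, at 10.4, 8.53 and 5.77 FPKM, and LOC113044050, on chromosome 26, in white 2 alone, at 7.51 FPKM. LOC113040699 (27227730 to 27229772) and LOC113040204 (27328795 to 27331788) lie 99022 bases apart. LOC113098692, on unplaced sequence, had 5.69, 0 and 0 FPKM in brown, 10.3, 5.98 and 0 FPKM in yellow and 6.30, 9.49 and 8.58 FPKM in white. LOC113049083, 84 bases head to head from an arrestin domain-containing protein 3-like gene, had 2.63, 0 and 6.90 FPKM in brown, 0, 0 and 4.91 FPKM in yellow and 6.44, 2.96 and 10.4 FPKM in white. Of the 26, 15 had reads in at least 1 library of every color and 11 had none in at least 1 color. Besides LOC113078668 and LOC113039374, described above, LOC113098391 had 0 reads in brown, 8.32, 0 and 0 FPKM in yellow and 7.92, 7.50 and 0.348 FPKM in white libraries 1 to 3.

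Brown 2 and yellow 3 were the 2 highest libraries for 137 of 625 tested lncRNA genes (21.9%), against 13.9% of protein-coding genes. LOC113076425, on unplaced sequence, had 28.2, 272 and 33.1 FPKM in brown, 26.5, 19.4 and 194 FPKM in yellow and 12.1, 11.9 and 56.1 FPKM in white libraries 1 to 3. LOC113054885, on chromosome 35, had 14.6, 147 and 39.3 FPKM in brown, 8.82, 6.70 and 214 FPKM in yellow and 6.74, 8.08 and 45.5 FPKM in white. Both libraries also had the fewest genes with a read. Hemoglobin genes took 0.370% of the reads in brown 2, 0.727% in yellow 3 and 0.387% in white 3, the next highest library for LOC113076425 and LOC113054885, against 0.0724% to 0.194% in the other 6. The part of blood or of gene detection in these values was not tested. The 3 libraries numbered 3 were the 3 highest in FPKM for 40 lncRNA genes (6.40%), against 7.84% of protein-coding genes, with LOC113111981 on chromosome 12 at 11.0, 9.34 and 51.5 FPKM in brown, 0.728, 2.28 and 132 FPKM in yellow and 4.76, 26.2 and 128 FPKM in white. In these libraries the total by which FPKM are divided was also the lowest relative to the counted reads, and the part of that scaling was not tested.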
